A study of Homo sapiens with 6 samples.

Results

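Mitosis and spindle genes encode the proteins that drive a cell into division and pull its copied chromosomes apart. The 50 genes described here were chosen by name as mitotic regulators, kinetochore proteins and spindle proteins, and every probe set that the platform annotation gives to one of them alone was taken. That made 98 probe sets of 50 genes, out of 41091 probe sets of 19775 genes with 1 symbol. The values used were expression microarray intensities of total RNA from BCWM1, a human cell line established from Waldenström macroglobulinemia, a lymphoma whose cells lie between B lymphocytes and plasma cells. Mutated BCWM1 cells (3 samples) were set against parental BCWM1 cells (3 samples), and the series title ties the mutation to the chemokine receptor gene CXCR4 and writes it as C1013G. The sources used here give neither the way the mutated cells were made nor whether they are 1 clone or were matched by a vector control. No treatment is given for either group. Nothing in the labels says that samples come from separate cultures, and the p-values then reflect the spread among these arrays alone, which may be technical.

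As background, entry into mitosis is driven by CDK1 bound to a B-type cyclin, once CDC25 phosphatases have removed the inhibitory phosphates that WEE1 and PKMYT1 place on it. The spindle checkpoint then holds back the anaphase-promoting complex (APC/C) until every kinetochore is attached, after which separase cuts cohesin and the cell divides. Many of these genes are transcribed late in the cell cycle. The DREAM complex represses them in resting cells, and B-MYB and FOXM1 together with the MuvB core activate them in cycling cells. MuvB reads a short promoter element, the cell cycle genes homology region (CHR), and the factor NF-Y reads the CCAAT boxes that often accompany it.

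Most of the promoters found for these genes, though not all, held the element. Of the 50 genes, 43 had at least 1 promoter in RefSeq's table for GRCh38.p14, 55 promoters in all, each covering 250 bases before to 50 bases after a transcription start site. The CHR, searched as TTTGAA on both strands, stood in 34 of the 55 promoters (61.8%) and in 15.2% of the 35116 promoters of the whole table. CCAAT, on both strands, stood in 38 (69.1%), against 34.6% of all promoters, and 26 (47.3%) held both motifs, against 5.9%. In 2 of the 55 the 2 motifs overlapped by at least a base. The CHR matches gathered near the start site: 20 of the 55 promoters (36.4%) held one that starts within the 50 bases before it, against 2.56% of all promoters. Promoters of 1 gene can overlap, so that some matches were counted in more than 1 of them. The promoters of CCNB2 and CDC25C, which encode cyclin B2 and a CDK1-activating phosphatase, are shown because both genes were higher in mutated cells and the promoters shown each hold a single CHR close to the start. The 250 bases before the start site follow, 5′ to 3′ on the strand of the gene (GRCh38.p14), with CHR and CCAAT matches in capitals.
CCNB2, chr15:59104896-59105145, plus strand: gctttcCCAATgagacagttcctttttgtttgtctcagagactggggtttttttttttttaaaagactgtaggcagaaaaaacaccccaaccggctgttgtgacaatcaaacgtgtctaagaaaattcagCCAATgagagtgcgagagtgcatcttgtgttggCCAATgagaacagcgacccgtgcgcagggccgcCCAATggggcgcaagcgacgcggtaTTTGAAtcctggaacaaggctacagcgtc
CDC25C, chr5:138331805-138332054, minus strand: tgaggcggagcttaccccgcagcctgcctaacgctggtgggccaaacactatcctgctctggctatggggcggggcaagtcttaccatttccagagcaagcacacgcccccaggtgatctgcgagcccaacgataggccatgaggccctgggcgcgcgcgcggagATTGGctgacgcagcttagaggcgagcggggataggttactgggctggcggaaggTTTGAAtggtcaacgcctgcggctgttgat

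**Figure D1:**
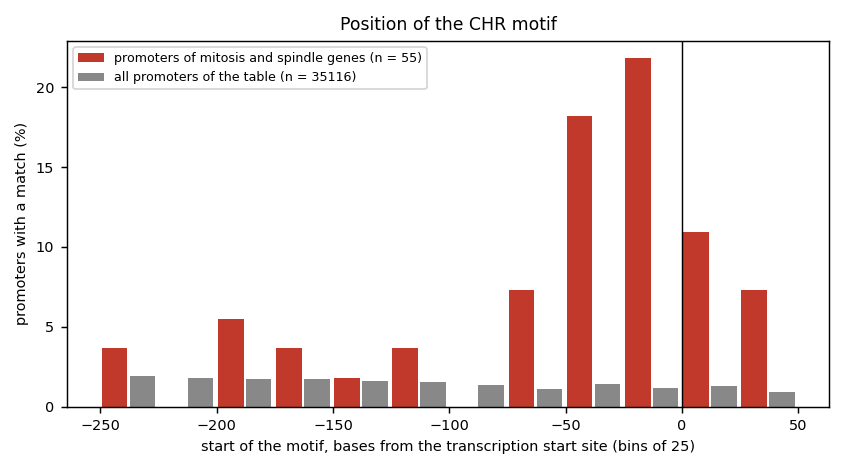
Share of promoters (%) in which a CHR motif starts, in bins of 25 bases from the transcription start site (x axis, bases), for the 55 promoters of mitosis and spindle genes and for all 35116 promoters. The bars of the mitosis and spindle genes are highest in the 2 bins just before the start site, at 18.2% and 21.8%, where those of all promoters stand at 1.43% and 1.17%.

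The same motif stood in promoters of genes that were higher, of genes that were lower and of genes that did not pass the test. A CHR was found for 11 of 17 genes higher in mutated cells, for both of the lower genes with a promoter in the table, and for 18 of 24 that did not pass. By promoter the shares were 58.3% of 24, 100% of 2 and 62.1% of 29. The motif thus stood in some promoters of each outcome, and a match is a stretch of letters, not a shown binding site. Windows around the motif are given for 5 genes that were higher (PLK1, PRC1, KIF18A, NUF2 and MAD2L1) and 2 that were lower (CENPA and KIF20B). Those of 3 that did not pass (BUB1B, KIF4A and CDCA8) are given as well. These windows are examples, and a link between flank and outcome was not tested. Each runs 5′ to 3′ on the strand of the gene, with the CHR in capitals and its first base counted from the start site.
PLK1, chr16:23678848-23678877, plus strand, motif at position -29: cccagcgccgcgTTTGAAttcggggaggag
PRC1, chr15:90994538-90994567, minus strand, motif at position -20: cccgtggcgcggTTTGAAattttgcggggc
KIF18A, chr11:28108149-28108178, minus strand, motif at position -10: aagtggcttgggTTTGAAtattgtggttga
NUF2, chr1:163321958-163321987, plus strand, motif at position 17: ggaggcggcaagTTTGAAaagtgatgacgg
MAD2L1, chr4:120066807-120066836, minus strand, motif at position 25: tgcgtcgttactTTTGAAacgcttggcggg
CENPA, chr2:26786026-26786055, plus strand, motif at position -18: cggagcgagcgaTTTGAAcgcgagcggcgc
KIF20B, chr10:89701602-89701631, plus strand, motif at position 25: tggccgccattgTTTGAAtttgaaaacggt
BUB1B, chr15:40161034-40161063, plus strand, motif at position -23: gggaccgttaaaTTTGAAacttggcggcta
KIF4A, chrX:70290058-70290087, plus strand, motif at position -34: ctccgggacggaTTTGAAacttggcggtta
CDCA8, chr1:37692481-37692510, plus strand, motif at position -23: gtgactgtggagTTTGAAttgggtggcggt
In KIF20B 2 copies follow each other directly, of which the second lies in lower case within the flank printed here. Among the windows printed, KIF20B, MAD2L1 and NUF2 hold the motif downstream of the start site. KIF20B was lower and MAD2L1 and NUF2 were higher in mutated cells.

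The genes of this set changed by small amounts, and more of them were higher than lower in mutated cells. All 50 genes passed the filter on dim probe sets through at least 1 probe set, and 93 of the 98 probe sets were tested. The 5 left out belonged to CCNB2, CDC25C, KIF20B and ECT2, with group means of at most 9.73. The brightest tested probe set of each gene stood for it, and changes are given as mutated minus parental on the log2(intensity + 16) scale, which understates the change of dim genes. With limma and a threshold of 0.05 on p adjusted over all 32768 tested probe sets (Benjamini-Hochberg), 20 of the 50 genes rose (40%), 3 fell (6%) and 27 did not pass. Among all 13644 genes tested 30.1% rose and 18.9% fell, together 49.0%. The median change of the 50 genes was 0.13, against 0.038 over all genes tested. No gene of the set changed by 1.5-fold or more on the probe set that represents it. Some dimmer probe sets did, such as one of MAD2L1 (2.02-fold). Of all genes tested, 13.7% passed the test with a change of at least 1.5-fold and 5.33% with one of at least 2-fold. The RNA came from whole cultures, in which more or fewer cells in mitosis and more or less RNA per such cell cannot be told apart.

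The counts were repeated under 17 alternatives to the scaling, the filter, the pseudocount, the model, the choice of probe set and the samples used. The excess of rises over falls was smaller when the arrays were rescaled. Median array intensity was 30.93 to 31.83 on the mutated arrays and 28.46 to 29.13 on the parental arrays. With quantile normalization 17 of the 50 genes rose and 4 fell (34% and 8%), against 24.9% and 25.6% of all genes. With each array centred on its median 12 rose and 6 fell (24% and 12%), against 22.4% and 26.1% of all genes, so that the share that rose was near that of all genes while the share that fell was smaller. Of the calls made in the set, 87.0% were rises in the values as deposited, 81.0% with quantile normalization and 66.7% with median centring, where all genes gave 61.5%, 49.4% and 46.1%. The median of the set was 0.050 with median centring, when that of all genes was -0.041. Quantile normalization and median centring moved the median of all genes by -0.065 and -0.079. Neither scaling made a gene rise that had not risen in the values as deposited. Without parental replicate 1, 13 genes rose and 1 fell, and 1 fell as well without parental replicate 2 or mutated replicate 2.

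Sample by sample, the median of the 50 genes relative to their parental mean was 0.11, 0.10 and 0.13 in the mutated samples, against -0.016, 0.026 and -0.017 in the parental samples. In the mutated samples 35, 35 and 34 of the 50 genes lay above that mean, and in the parental samples 19, 35 and 20. Parental replicate 2 thus matched the mutated samples in the number of genes above the mean but not in the size of their deviation. The parental samples were set against their own mean, which keeps them near 0. The median log2 level of all genes tested was higher as well, at 8.348 to 8.355 in mutated and 8.199 to 8.232 in parental samples. For the 50 genes it was 10.564 to 10.635 and 10.483 to 10.527. Counts above the parental mean were not made over all genes. The 3 mutated values lay above the 3 parental values for 26 genes and below them for 6, and for 18 the groups overlapped. Over all genes tested the groups did not overlap in 61.2%, with mutated above parental in 36.3% and below in 24.8%.

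The labelled cell type was checked on marker genes. All 6 B cell markers with a probe set of their own were tested, and their summed intensity was 29114 to 30397 in mutated and 28592 to 29892 in parental samples. Of these 6, 2 rose (33.3%) and 1 fell (16.7%), with changes from -0.41 to 0.63, where 30.1% of all genes tested rose and 18.9% fell. The 7 plasma cell markers summed to 10356 to 11286 in mutated and 13666 to 14297 in parental samples. Of these 7, 4 fell (57.1%) and 1 rose (14.3%), with a median change of -0.65 and a range of -1.89 to 0.48. The part of the lower plasma cell markers in the results on mitosis and spindle genes was not tested. The 5 T cell markers summed to 75.7 to 106 in mutated and 83.2 to 84.4 in parental samples, and the 5 myeloid markers to 60.5 to 68.3 and 60.4 to 67.8, with every marker mean of both lists under 100. The 5 fibroblast or epithelial markers summed to 482 to 584 in mutated and 779 to 850.0 in parental samples, with 4 of the 5 means under 100.

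**Figure D2:**
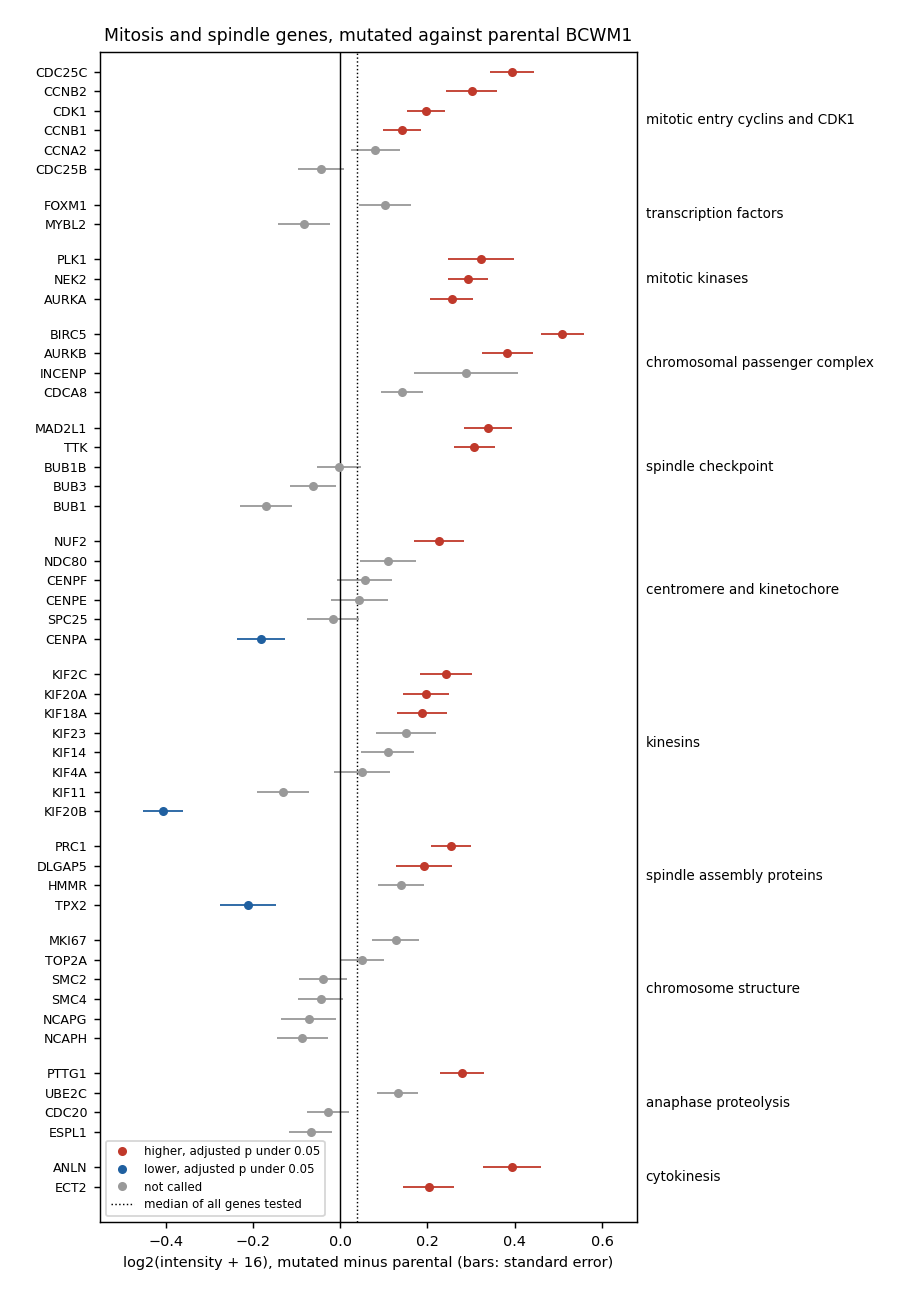
Change of each of the 50 genes on the log2(intensity + 16) scale, mutated minus parental (x axis), with its standard error, grouped by role and ordered by size within each role. The 20 red points (higher) run from 0.14 for CCNB1 to 0.51 for BIRC5, the 3 blue points (lower) are CENPA, TPX2 and KIF20B, and no gene of chromosome structure or transcription passed the test.

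Among the drivers of mitotic entry, 4 of 6 genes rose (66.7%), where 30.1% of all genes tested did. CDC25C had an intensity of 429.7, 439 and 442 in mutated cells, against 325, 344 and 318 in parental cells (log2 change 0.39, SE 0.050, adjusted p = 0.0010). Cyclin B2, CCNB2, read 3612, 3225 and 3505 in mutated cells, against 2813, 2845 and 2719 in parental cells (log2 change 0.30, SE 0.059, adjusted p = 0.0063). The mitotic kinase CDK1 read 4675, 4700.2 and 4617 in mutated cells, against 4049.7, 4105 and 4048 in parental cells (log2 change 0.20, SE 0.043, adjusted p = 0.010). In all 3 genes every mutated value lay above every parental value on these probe sets. CDK1 did not pass with median centring (adjusted p = 0.091), nor CCNB2 as the mean of its probe sets (0.14). CDK1 rose on 2 of its 4 tested probe sets. The other 2, both bright, gave 0.040 (adjusted p = 0.57) and 0.071 (0.27). Cyclin B1, CCNB1, read 2670.2, 2755 and 2744 in mutated cells, against 2461, 2446 and 2493 in parental cells, the smallest called rise of the set (log2 change 0.14, SE 0.045, adjusted p = 0.038). It passed only narrowly: the call was lost on leaving out any 1 of the 6 samples (adjusted p = 0.067 to 0.11), with either other scaling (0.075 and 0.33) and without the filter on dim probe sets (0.084). Its groups did not overlap, and its second probe set gave 0.016 (adjusted p = 0.81). Cyclin A2, CCNA2, which acts in S phase and early mitosis, and CDC25B, a second CDC25 phosphatase, gave 0.081 and -0.044 and did not pass. CCNA2 gave -0.13 on its other probe set.

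The transcription factors of the late cell cycle did not pass the test. FOXM1, a forkhead activator of G2/M genes, read 619, 638 and 588 in mutated cells, against 562, 605 and 549.6 in parental cells (log2 change 0.10, SE 0.060, adjusted p = 0.20). MYBL2, which encodes B-MYB, read 825, 838 and 774 in mutated cells, against 912, 834 and 838 in parental cells (log2 change -0.082, SE 0.060, adjusted p = 0.30). The groups overlapped in both.

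All 3 genes grouped here as mitotic kinases rose, where 30.1% of all genes tested did. Other kinases of the set are given under other roles, among them CDK1, AURKB and TTK, which rose, and BUB1, which did not pass. PLK1, polo-like kinase 1, which acts at centrosomes, kinetochores and the midbody, read a dim 89.9, 102 and 82.0 in mutated cells, against 67.4, 72.1 and 69.1 in parental cells (log2 change 0.32, SE 0.076, adjusted p = 0.013). NEK2, a centrosomal kinase, read 2510.2, 2448 and 2466 in mutated cells, against 1971, 2065 and 2019 in parental cells (log2 change 0.29, SE 0.046, adjusted p = 0.0025). AURKA, the Aurora kinase of the spindle poles, read 1932, 1861 and 1920.5 in mutated cells, against 1540.4, 1610.3 and 1629 in parental cells (log2 change 0.26, SE 0.049, adjusted p = 0.0055). The groups were apart in all 3. PLK1 has 1 probe set, and its call was lost with quantile normalization (adjusted p = 0.18). Names in _s_at and _x_at belong to probe sets that can match more than 1 transcript. The only AURKA probe set with neither ending gave 0.25 at an intensity of 55.4 ± 11.9 in mutated and 43.7 ± 7.56 in parental cells (SD, n = 3) and did not pass (adjusted p = 0.21).

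The chromosomal passenger complex corrects faulty attachments and sets up cytokinesis. Its 4 genes all read higher on average and 2 passed the test (50%), where 30.1% of all genes tested rose. On the representing probe sets BIRC5, which encodes survivin, had the largest change of the set. It read 2336, 2277 and 2376 in mutated cells, against 1688, 1627 and 1583 in parental cells (log2 change 0.51, SE 0.050, adjusted p = 3.1e-04). AURKB, the kinase of the complex, read 630.2, 611 and 599 in mutated cells, against 492, 469 and 440.3 in parental cells (log2 change 0.38, SE 0.057, adjusted p = 0.0020). Both pairs of groups were well apart, and both calls held under each of the 17 alternatives. INCENP, the scaffold, gave 0.29 at a dim 61.5 ± 12.5 in mutated and 46.9 ± 2.69 in parental cells (SD, n = 3; adjusted p = 0.088). Without mutated replicate 3, the lowest of its mutated values, it was 0.41 and passed (adjusted p = 0.011), but leaving out that value widens the difference by itself. CDCA8, borealin, gave 0.14 with an adjusted p of 0.051, and passed without parental replicate 2 (0.046), likewise the parental value nearest the mutated ones.

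The spindle checkpoint genes did not move as 1 group. MAD2L1, whose product binds and blocks CDC20, read 5257, 5087 and 5576 in mutated cells, against 4076, 4222 and 4272 in parental cells (log2 change 0.34, SE 0.055, adjusted p = 0.0027). TTK, the kinase MPS1 at the head of the pathway, read 1824, 1743 and 1783 in mutated cells, against 1428, 1463 and 1423 in parental cells (log2 change 0.31, SE 0.046, adjusted p = 0.0020). Both rose with no overlap between groups and under each of the 17 alternatives. BUB1, a kinetochore kinase of the same pathway, read 2077, 2212 and 2292 in mutated cells, against 2364, 2484 and 2562 in parental cells, all mutated values below all parental values (log2 change -0.17, SE 0.060, adjusted p = 0.054). It fell past the threshold with quantile normalization (adjusted p = 0.047), with median centring (0.016) and without mutated replicate 3 (0.045), its highest mutated value. BUB1B, which encodes BUBR1, gave -0.0025 (SE 0.050) and BUB3, their shared partner, -0.063 (SE 0.052), with overlapping groups in both.

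**Figure D3:**
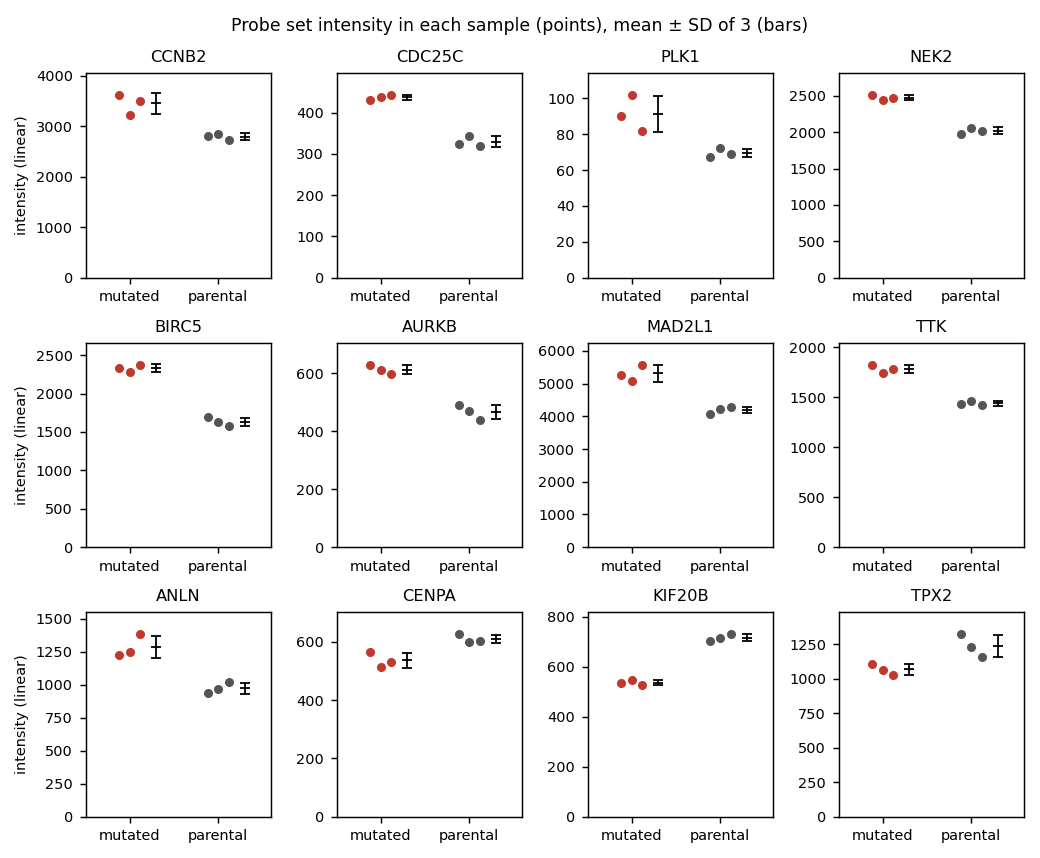
Intensity (linear scale, y axis from 0) of 12 of the 23 genes past the test in each of the 3 mutated (left) and 3 parental samples (right), with the mean and SD beside the points. The mutated points lie above the parental points in the first 9 panels and below them in CENPA, KIF20B and TPX2, by under 2-fold in each.

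Of 6 genes of the centromere and kinetochore, 1 rose and 1 fell (16.7% each), where 30.1% of all genes tested rose and 18.9% fell. NUF2, a subunit of the NDC80 complex that holds microtubules, read 1451, 1442 and 1593 in mutated cells, against 1247, 1308 and 1269 in parental cells (log2 change 0.23, SE 0.058, adjusted p = 0.018). CENPA, the histone H3 variant that marks centromeres, read 566, 513 and 529.6 in mutated cells, against 626, 600.2 and 604 in parental cells (log2 change -0.18, SE 0.055, adjusted p = 0.034). The groups did not overlap in either gene. The other subunits of the NDC80 complex, NDC80 (0.11) and SPC25 (-0.017), did not pass, nor did CENPE (0.043), a kinetochore kinesin, and CENPF (0.056), a large protein of the outer kinetochore. The NUF2 call was lost with median centring (adjusted p = 0.080) and without parental replicate 1 or 3 (0.053 to 0.060), and that of CENPA without the filter (0.071) and without any 1 sample other than mutated replicate 1 (0.066 to 0.11).

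Of the 8 kinesins, motors that move along or take apart microtubules, 3 rose (37.5%) and 1 fell (12.5%). These shares were near the 30.1% and 18.9% of all genes tested. KIF20B, a kinesin of late cytokinesis, had the largest fall of the set, with 536, 547 and 528 in mutated cells, against 704, 716 and 731 in parental cells (log2 change -0.41, SE 0.046, adjusted p = 5.8e-04). KIF2C, which depolymerises microtubules at centromeres, read 2440.4, 2329.7 and 2265 in mutated cells, against 1929.7, 2101 and 1913 in parental cells (log2 change 0.24, SE 0.059, adjusted p = 0.015). KIF20A, a motor of the central spindle, read 2039, 2092 and 2134 in mutated cells, against 1737, 1862 and 1862 in parental cells (log2 change 0.20, SE 0.052, adjusted p = 0.020). The groups were apart in these genes and in KIF18A, which dampens chromosome movements and read 709.6, 660.2 and 648 in mutated cells, against 575, 611 and 578 in parental cells (log2 change 0.19, SE 0.057, adjusted p = 0.033). KIF20B fell under each of the alternatives, except the one restricted to probe sets named neither _s_at nor _x_at, which left it none. With median centring none of the 3 rises passed (adjusted p = 0.081 for KIF2C, 0.13 for KIF20A and 0.19 for KIF18A). They were also lost without single samples: KIF2C without parental replicate 1 or 3 or mutated replicate 1 (0.052 to 0.053), KIF20A without parental replicate 1 or mutated replicate 2 or 3 (0.050 to 0.066), and KIF18A without parental replicate 1 or 3 or mutated replicate 1 or 2 (0.067 to 0.098). KIF23 (0.15), the motor of the centralspindlin complex, KIF14 (0.11), which acts in cytokinesis, KIF4A (0.051), a motor bound to chromosomes, and KIF11 (-0.13), which pushes the spindle poles apart, did not pass. KIF11 was lower past the threshold with median centring (adjusted p = 0.025) and without mutated replicate 3 (0.048), its highest mutated value.

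Proteins that build the spindle moved in both directions. PRC1, which bundles antiparallel microtubules of the central spindle, read 2231, 2258 and 2160.1 in mutated cells, against 1870.5, 1869 and 1831 in parental cells (log2 change 0.25, SE 0.046, adjusted p = 0.0045). DLGAP5, also called HURP, a stabiliser of kinetochore fibres, read 2677, 2512 and 2839 in mutated cells, against 2381, 2402 and 2231 in parental cells (log2 change 0.19, SE 0.064, adjusted p = 0.046). TPX2, which activates AURKA and nucleates microtubules near chromosomes, read 1109.8, 1061 and 1031 in mutated cells, against 1322, 1232 and 1161 in parental cells (log2 change -0.21, SE 0.064, adjusted p = 0.035). PRC1 thus rose, and TPX2 fell while its partner AURKA rose, with no overlap between groups in any of these. The DLGAP5 call was lost without any 1 sample other than mutated replicate 2 (adjusted p = 0.074 to 0.13) and with either other scaling (0.054 and 0.19). That of TPX2 was lost without parental replicate 1 or 2 or mutated replicate 2 or 3 (0.081 to 0.099) and without the filter (0.070). HMMR (0.14), a microtubule-binding protein of the spindle pole, did not pass (adjusted p = 0.065).

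None of the 6 genes of chromosome structure passed the test on the probe set that represents it, where 49.0% of all genes tested did. Of the 6, 4 read slightly lower on average. TOP2A, the topoisomerase that untangles sister chromatids, read 4751, 4560.5 and 4819.9 in mutated cells, against 4557, 4626 and 4452 in parental cells (log2 change 0.051, SE 0.048, adjusted p = 0.42). MKI67, which encodes the proliferation marker Ki-67, read 1827, 1713 and 1700.4 in mutated cells, against 1613, 1635 and 1545 in parental cells (log2 change 0.13, SE 0.053, adjusted p = 0.093). The groups of TOP2A overlapped and those of MKI67 did not. The condensin ATPase genes SMC2 (-0.040), SMC4 (-0.044) and the condensin subunit genes NCAPG (-0.072) and NCAPH (-0.086) had overlapping groups.

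Of the 4 genes of anaphase proteolysis, 1 rose (25%), where 30.1% of all genes tested did. PTTG1, securin, which restrains separase until anaphase, read 6823, 6721 and 6678 in mutated cells, against 5444, 5819 and 5399 in parental cells (log2 change 0.28, SE 0.051, adjusted p = 0.0046). It passed under every alternative that left it a probe set. ESPL1, separase itself, gave -0.068 (adjusted p = 0.30), and passed as a fall with median centring (0.049). CDC20, the APC/C activator that MAD2L1 blocks, gave -0.029, and UBE2C, the ubiquitin-conjugating enzyme of the APC/C, gave 0.13 (adjusted p = 0.058). Securin and MAD2L1 thus rose while ESPL1 and CDC20, whose products they restrain, did not pass on the probe sets that represent them.

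Both genes of cytokinesis rose, where 30.1% of all genes tested did. ANLN, anillin, a scaffold of the contractile ring, read 1227, 1248 and 1382 in mutated cells, against 935, 969 and 1019 in parental cells (log2 change 0.39, SE 0.066, adjusted p = 0.0031). ECT2, the exchange factor that activates RhoA at the division plane, read 1288, 1377 and 1437 in mutated cells, against 1159, 1185 and 1211 in parental cells (log2 change 0.20, SE 0.057, adjusted p = 0.027). The groups were apart in both. ANLN held under each of the 17 alternatives. The call on ECT2 was lost without any 1 sample other than mutated replicate 1 (adjusted p = 0.052 to 0.082), with median centring (0.13), without the filter (0.057) and as the mean of its probe sets (0.62).

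Of the 23 calls, 10 kept their direction and passed under every alternative that could be fitted, 9 of them rises (ANLN, AURKB, BIRC5, CDC25C, MAD2L1, NEK2, PRC1, PTTG1 and TTK) and 1 a fall (KIF20B).

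Several genes have more than 1 probe set, and these did not always give the same answer. Of the 93 tested probe sets 35 were higher (37.6%) and 5 lower (5.38%), against 30.9% and 16.6% of all tested probe sets, of which 47.5% were called. Of 25 genes with more than 1 tested probe set, 18 had all of them on 1 side of 0, and 5 had every one called higher: ANLN, BIRC5, CDC25C, KIF2C and MAD2L1. No gene had 1 called higher and another called lower. Such counts were not made over all genes, so they cannot be set against a background.

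The 4 BIRC5 probe sets ran from 0.48 to 0.80. The one with 0.80 read 1070.0, 1082 and 1038 in mutated cells, against 579.6, 636 and 593 in parental cells (adjusted p = 6.6e-05). MAD2L1 gave 0.33 and 0.34 on the bright probe sets and 1.01 on the dimmest one, which read 725, 671 and 641 in mutated cells, against 317, 336 and 332 in parental cells (adjusted p = 4.1e-05). All probe sets of both genes were thus higher in mutated cells, while those of MAD2L1 differed widely in the size of the change. CDC25C gave 0.39 and 0.64, the second at 100.3, 104 and 104 in mutated cells, against 60.8, 60.8 and 58.3 in parental cells.

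In 5 genes a dimmer probe set was higher where the representing one did not pass, and the share of such genes among all genes was not counted. These were KIF23 (0.35, adjusted p = 0.0080), KIF14 (0.35, 0.0024), TOP2A (0.37, 0.0055), BUB3 (0.66, 0.0056) and BUB1 (0.24, 0.022). The BUB3 probe set was dim and read 51.1, 50.5 and 36.8 in mutated cells, against 18.2, 27.6 and 23.7 in parental cells, and the other 5 BUB3 probe sets gave -0.13 to 0.10. The TOP2A probe set read 115, 106 and 109 in mutated cells, against 73.2, 86.4 and 85.6 in parental cells. Conversely MKI67 fell on 1 of its 4 probe sets, which read 529, 519 and 473 in mutated cells, against 598, 568 and 584 in parental cells (-0.20, adjusted p = 0.033), while the other 3 gave -0.14, -0.018 and 0.13. ESPL1 fell on a probe set that read 529, 495 and 564 in mutated cells, against 589, 648 and 615 in parental cells (-0.22, adjusted p = 0.036). The level of MKI67 therefore had no single direction in these arrays. Which transcripts each probe set reads was not analysed here.

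**Figure D4:**
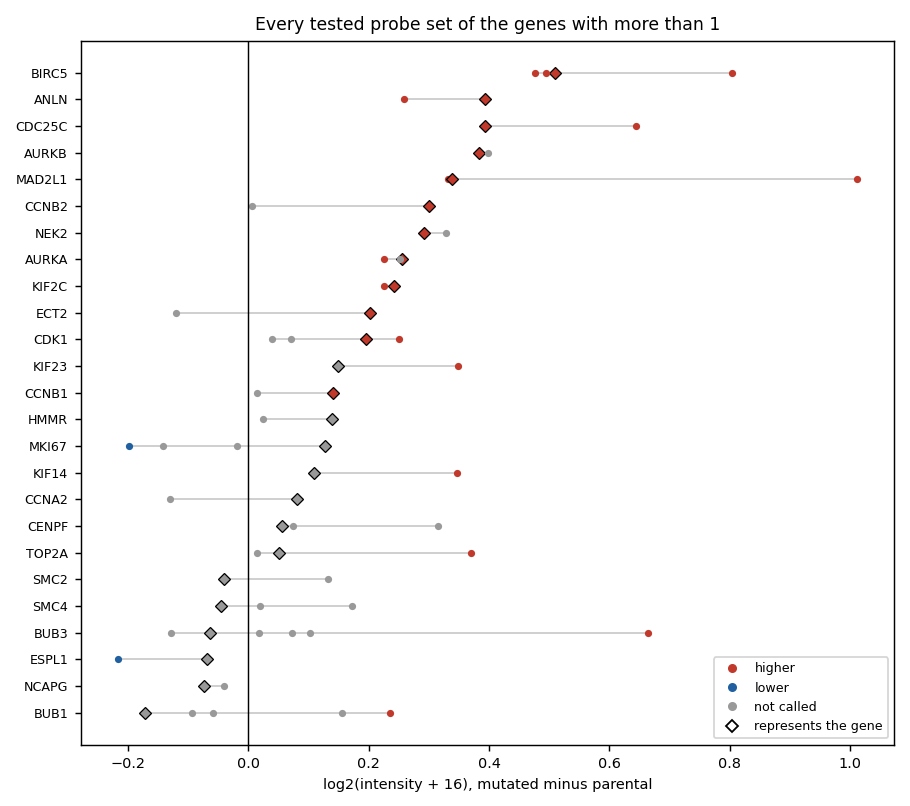
Change of every tested probe set (points, log2(intensity + 16) scale, mutated minus parental) of the 25 genes with more than 1, with diamonds for the probe set that represents the gene and colours for the call. BIRC5, ANLN, CDC25C, MAD2L1 and KIF2C lie wholly among the higher calls, whereas those of MKI67, BUB3 and BUB1 spread over both sides of 0.

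Other genes of the same processes were counted by lists of their names, without a test of the lists or of the differences between them. Over all genes tested 30.1% rose and 18.9% fell. Of 33 other centromere and kinetochore genes, 13 rose (39.4%) and 1 fell, with a median of 0.16. CENPW, a histone-fold protein of the inner kinetochore, read 2532, 2563 and 2436 in mutated cells, against 1879.8, 1887 and 1862 in parental cells (0.42, adjusted p = 5.5e-04). BOD1, which acts in chromosome biorientation, read 1165, 1237 and 1202 in mutated cells, against 834, 884 and 927 in parental cells (0.44, adjusted p = 0.0011). CENPN, a reader of CENPA nucleosomes, gave 0.39 and SGO1, the protector of centromeric cohesin, 0.36. Other probe sets gave -0.14 for CENPN and -0.19 for SGO1, and neither of these genes passed as the mean of its probe sets. Of 16 APC/C subunits and regulators 7 rose (43.8%) and 1 fell (6.25%), median 0.097. The subunit genes ANAPC2 (0.41), ANAPC15 (0.39) and CDC26 (0.27) rose, and CDC27 fell on the probe set that represents it (-0.37), though another of its probe sets gave 0.070. With median centring 3 of this list rose and 4 fell, when 22.4% of all genes rose and 26.1% fell.

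Of 17 cohesin and other condensin genes 2 rose (11.8%) and 5 fell (29.4%), median -0.060. As the mean over probe sets 3 rose and 2 fell, 2 rose and 3 fell without parental replicate 2 or 3, and with only probe sets named neither _s_at nor _x_at the median was 0.0036. The cohesin regulator PDS5A (-0.24), the cohesin subunit STAG1 (-0.24) and SMC1A (-0.42), a core subunit, were among those that fell on the representing probe set, and CDCA5, sororin, rose (0.24). SMC1A had 3 other probe sets that rose, up to 0.43, so that its direction depends on the probe set, and as the mean of its probe sets it rose (0.15). The 4 tested probe sets of PDS5A ran from -0.24 to 0.0091, and 1 of them fell. The brightest probe set was chosen anew in each fit. Without parental replicate 1, 2 or 3 or mutated replicate 3 a different one stood for PDS5A, and it did not pass (-0.15 to -0.053). Of 35 other spindle and centrosome genes 9 rose (25.7%) and 4 fell (11.4%), median 0.036. With quantile normalization 8 rose and 6 fell and with median centring 4 and 6, and the median turned to -0.018 and -0.043. HAUS3 (0.41) and STIL (0.38) rose, the first a part of augmin, which branches spindle microtubules, and the second a centriole assembly factor. HAUS5 (-0.43), another augmin part, and TUBG1 (-0.32), gamma-tubulin, fell. HAUS5 fell on 1 of its 3 tested probe sets, which ran from -0.43 to -0.043.

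Of 18 DREAM, RB and E2F genes, which encode the switch that silences or activates cell cycle promoters, 6 rose (33.3%) and 5 fell (27.8%), where 30.1% and 18.9% of all genes did. The falls were 3 without the filter, as the mean over probe sets, and without parental replicate 2 or 3 or mutated replicate 2. E2F5, a repressor-type E2F, read 612, 581 and 578 in mutated cells, against 326, 346 and 331 in parental cells (0.79, adjusted p = 5.3e-05). LIN37, the MuvB subunit needed for repression by DREAM, read 284, 298 and 303 in mutated cells, against 173, 168 and 194 in parental cells (0.68, adjusted p = 3.1e-04). Both rose by more than any of the 50 genes on its representing probe set. E2F4, the other E2F of the DREAM complex, fell to 222 ± 10.5 in mutated cells, against 367 ± 4.05 in parental cells (SD, n = 3), a log2 change of -0.69, but its second probe set gave -0.055. RBL1, the pocket protein p107, gave -0.50 on the probe set that represents it and rose by 0.37 on another, so that it has no single direction.

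Of 17 brakes and switches of the G2/M transition 5 rose (29.4%) and 4 fell (23.5%), near the 30.1% and 18.9% of all genes tested. With median centring 3 rose and 6 fell, when all genes gave 22.4% and 26.1%, and 3 rose and 4 fell without mutated replicate 2. WEE1, the kinase that holds CDK1 inactive and thereby opposes CDC25C, read 1669.7, 1589.6 and 1604 in mutated cells, against 1997, 2128 and 1999 in parental cells (-0.33, adjusted p = 0.0024). Its second probe set fell by 0.69 on the log2 scale. CHEK1, the checkpoint kinase upstream of the CDC25 phosphatases, fell as well (-0.32), though on 1 of its 3 tested probe sets, which ran from -0.32 to -0.12. CKS1B (0.32), a CDK subunit, and CDKN3 (0.30), a phosphatase of cyclin-dependent kinases, rose. CDC25C thus rose and WEE1 fell, while CDC25B (-0.044) did not pass. The groups did not overlap in CDC25C or WEE1, nor in 61.2% of all genes tested. The activity of CDK1 was not measured.

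The genes of DNA replication and the G1/S transition were counted as the neighbouring phase. Of the mitosis and spindle genes 20 rose and 3 fell of 50, with a median of 0.13, against 10 (22.7%) and 15 (34.1%) of 44 and a median of -0.058 in the G1/S genes. UHRF1 (-0.46), which reads newly replicated methylated DNA, RRM2 (-0.42), a subunit of ribonucleotide reductase, and POLA1 (-0.39), the polymerase that starts DNA strands, fell. RPA3, a subunit of the single-strand binding protein, rose (0.30). With median centring the mitosis and spindle genes gave 12 rises, 6 falls and a median of 0.050, against 5 rises, 19 falls and -0.14 in the G1/S genes. The CHR stood in 61.8% of the promoters of the mitosis and spindle genes, against 2 of 51 promoters of the G1/S genes (3.92%), and CCAAT in 69.1%, against 54.9%. The difference between the lists was not tested.

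**Figure D5:**
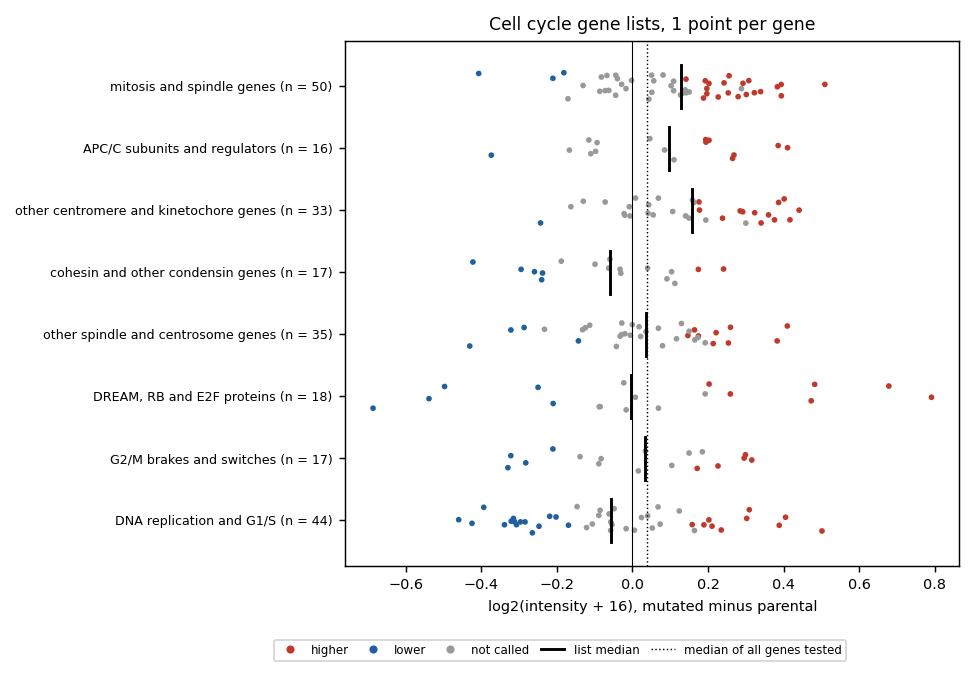
Change of each gene (points, log2(intensity + 16) scale, mutated minus parental) in the mitosis and spindle genes and in 7 other cell cycle lists, with the median of each list (black bar) and of all genes tested (dotted line, 0.038). The bar lies at 0.13 for the mitosis and spindle genes, at 0.16 for the other centromere and kinetochore genes and at -0.058 for DNA replication and G1/S.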

How the data were processed

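Total RNA of 6 BCWM1 samples was labelled and hybridised to 3′ expression arrays, per the labels' protocols. The deposited values are linear probe set intensities as the authors processed them. Background correction, summary method and normalization are not given in the sources that were used. Genes were named through the platform annotation, which gives 1 symbol for 41091 of 54613 probe sets, several for 1801 and none for 11721. The dimmest 40% of probe sets by mean were dropped, and log2(intensity + 16) was tested with limma 3.58.1 in R 4.3.3 (lmFit and eBayes, group as the only term), with Benjamini-Hochberg adjustment over 32768 probe sets and a threshold of 0.05. The fit was tested on simulated data. Member genes, gene lists and marker lists (B, plasma, T, myeloid, fibroblast or epithelial cells) were chosen with earlier results of these data known. All 50 members were named, with values per sample for those past the threshold, and of every other list up to 4 genes past the threshold with the smallest adjusted p. Other genes and probe sets given with values were chosen after their values were seen. Promoters came from RefSeq (GRCh38.p14). Alternatives covered scaling, filter, pseudocount, moderation, array weights, replicate block, probe set choice and each sample left out. The precision is limited by 3 arrays a group.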

Additional observations from a re-analysis of the deposited data

How the results depend on the processing

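Of 23 calls among the 50 genes, 10 held under all alternatives that could be fitted. Against 20 genes that rose and 3 that fell, median centring gave 12 and 6, with a median change of 0.050, and only probe sets ending in neither _s_at nor _x_at, which 37 of the genes have, gave 13 and 0. With no filter on dim probe sets 1 gene fell, and with a trended, robust eBayes 5 fell. Leaving out 1 sample at a time gave 13 to 18 genes that rose and 1 to 3 that fell. Counts over all genes stayed within 1.5 times of their first value under all 17 alternatives. Same-numbered samples of the 2 groups deviated together with low correlations of 0.11, 0.027 and 0.11. Each sample correlated best with its own number, a hint from the data. The labels do not say whether the numbers pair the samples, and these correlations cannot settle it. The fit with a replicate block gave 18 genes that rose and 4 that fell, and over all genes 3835 and 2423. The sign turned in 12 genes, none of them called. With the mean over probe sets CCNA2 gave -0.025, BUB1 0.014, BUB3 0.11, SMC2 0.046, SMC4 0.049 and MKI67 -0.058. With neither _s_at nor _x_at BUB3 gave 0.072 and SMC2 0.13. With median centring CENPE gave -0.036, CENPF -0.023, KIF4A -0.028 and TOP2A -0.028. BUB1B gave 0.00079 with array weights and -0.033 to 0.023 with 1 sample left out, above 0 without parental replicate 2 (0.023), parental replicate 3 (0.0019) or mutated replicate 3 (0.0040). SPC25 gave -0.065 to 0.013 with 1 sample left out, above 0 without parental replicate 2 (0.013) or 3 (0.00065). CENPE gave -0.0079 to 0.091, below 0 without parental replicate 3. The cause of these changes was not tested, other than that fewer samples or probe sets entered some fits. Signal over background was not measured here. The standard error of a member's change ran from 0.043 to 0.12, and was highest in INCENP.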
